A study of Homo sapiens with 6 samples.

Results

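Homologous recombination and Fanconi genes were followed as a set of 36 named genes, all of which were found among the 60616 gene identifiers of each library and all of which passed the filter on low counts that left 16719 genes for testing. RNA came from 12Z, an immortalized wild-type human endometriotic cell line that is a single line and not a panel of patients, kept in medium with charcoal-stripped serum. The treated group received frankincense extract, a preparation of Boswellia resin, at 70 ug/mL in DMSO for 12 h (3 libraries), and the control group received DMSO alone (3 libraries). Whether the replicates were grown as separate cultures is not stated in the labels; p-values therefore describe the spread among these libraries, and that spread may be technical.

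Homologous recombination repairs a broken chromosome by copying the intact sister molecule, and cells use it mainly in the S and G2 phases. Broken ends are first cut back to single strands, these then invade the intact molecule with the help of BRCA2 and PALB2, and the joined molecules are finally separated or cut. The Fanconi proteins find crosslinked DNA strands, attach ubiquitin to a pair of clamp proteins and pass the lesion to the same recombination machinery. Many of these genes are transcribed more strongly in dividing cells.

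The libraries held 22615150 to 27615196 expected counts, so that 3 counts amounted to 0.109 to 0.133 CPM in a library (counting error only). Frankincense replicate 3 stood apart from the other treated libraries on the second principal component, at -27.6 against 7.99 and 19.9. Against the mean of frankincense replicates 1 and 2, its members ranged between -0.44 (MND1) and 0.38 (RAD50) on the log2 scale (median 0.02). Over all genes this library's deviation moved with effective transcript length (Spearman 0.32 across genes, which are not independent and share these libraries), and the part of that in the members' values was not tested. Endothelial markers summed to at most 0.26 TPM with frankincense and 0.27 TPM with vehicle, with CDH5 at 0 in every library. Of 6 immune markers CD68 alone was above 1 TPM in all libraries, CD3E was at 0, and the list summed to 35.1 to 64 TPM with frankincense and 30.3 to 34.1 TPM with vehicle. CD14 went the other way, at a mean of 0.41 TPM with frankincense and 2.53 TPM with vehicle. The epithelial list had 6 of 9 markers at or above 1 TPM in all libraries, summing to 1381 to 1434 TPM with frankincense and 1607 to 1643 TPM with vehicle, but CDH1, the epithelial cadherin gene, was at most 0.06 TPM with frankincense and 0.23 TPM with vehicle. Stromal markers reached that level in 7 of 8 genes and summed to 1165 to 1414 TPM with frankincense and 2776 to 2838 TPM with vehicle. The part of these marker differences in the results below was not tested.

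On counts, 18 of the 36 genes were higher after frankincense, 9 were lower and 9 were not called (edgeR's quasi-likelihood test, Benjamini-Hochberg adjusted p under 0.05 over all genes tested). The share called higher was 50% of the members, beside 31.9% of all genes tested, and the share called lower was 25%, beside 31% of all genes; 62.9% of all genes were called in either direction. The count changes of all 27 called members were under 2-fold, whereas 5.14% of all genes rose and 7.11% fell by at least that much. The median log2 fold change of the members was 0.14, against -0.0016 over all genes. CPM of the groups did not overlap for 28 members (77.8%), beside 67.5% of all genes: 19 were higher and 9 lower, and 33.5% of all genes were lower without overlap. In bulk RNA, fewer cells of a type and less RNA per cell cannot be told apart.

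By role, BRCA2, its partner PALB2, 4 of the 5 genes RAD51B, RAD51C, RAD51D, XRCC2 and XRCC3, 4 of 5 end resection genes and POLQ rose. Role groups are small, and their counts stand beside 31.9% of all genes called higher and 31% called lower. Among these risers, the calls of XRCC3 and EXO1 were lost with a length offset, as given below. The pair of clamp genes FANCD2 and FANCI fell on counts, as did RMI2 and FANCL, which carried the largest falls. The strand exchange genes RAD51AP1, RAD54L and RAD54B were not called on counts and were called higher on TPM, as were 44.2% of all genes.

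**Figure D1:**
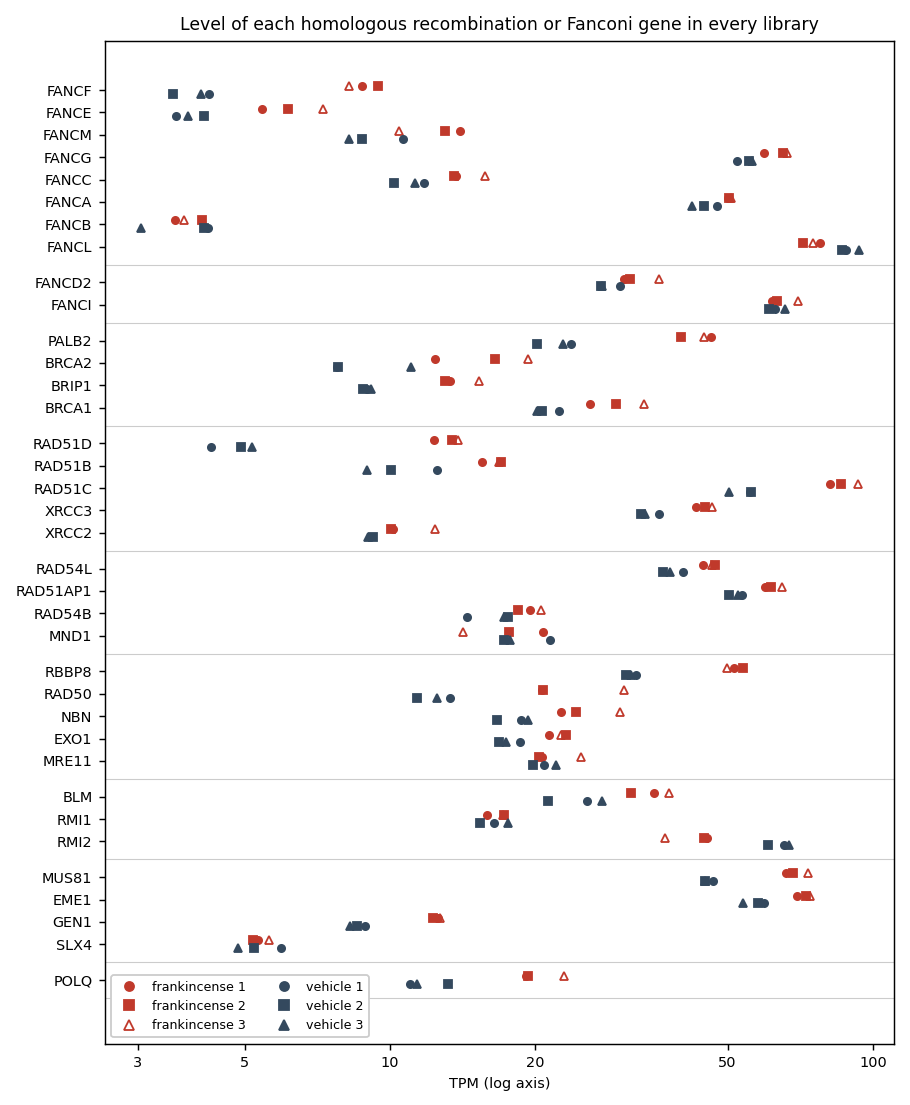
Level of each of the 36 genes in TPM on a log axis, grouped by role, with the 3 frankincense libraries in red above the 3 vehicle libraries in dark grey and frankincense replicate 3 drawn open. RAD51D, FANCF and PALB2 separate most widely, RMI2 and FANCL lie lower with frankincense, and MND1, SLX4 and RMI1 overlap on this scale.

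Promoter sequence was read for the members because genes of this kind are often controlled with the cell cycle. RefSeq's table (GRCh38.p14) gave a window from 250 bases before to 50 bases after the start for 32 of the 36 genes. Both strands were searched for the E2F letters TTTCCCGC, TTTGGCGC, TTTCGCGC and TTTGCCGC, which belong to the factors that drive S phase genes, for TTTGAA, the cell cycle homology element of many G2/M genes, and for CCAAT, the box bound by NF-Y. No string searched contains another. An E2F string was present in 7 of 32 members (21.9%), beside 3.31% of 35116 promoters of any gene type with this length. By direction on counts, it was present in 1 of 17 risers, EXO1, in 3 of 7 fallers, FANCA, FANCD2 and MND1, and in 3 of 8 genes that were not called, FANCC, XRCC2 and GEN1. TTTGAA was present in 9.38% of the members and 15.2% of all promoters, and CCAAT in 37.5% and 34.6%. These are matches of letters in a short window and were not tested.

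Stretches that no annotated exon covers are shown for 2 genes with E2F strings (FANCA and FANCC) and for 3 risers without one in the window (RAD51D, PALB2 and XRCC3), 5′ to 3′ toward the gene's start. Capitals mark E2F and CCAAT strings on either strand. FANCA (chr16:89816658-89816857, minus strand) holds 1 E2F and 1 CCAAT string in these bases, FANCC (chr9:95317710-95317909, minus strand) holds 2 E2F strings, PALB2 (chr16:23641311-23641391, minus strand) holds 1 CCAAT string, XRCC3 (chr14:103715505-103715701, minus strand) holds 4 CCAAT strings, and RAD51D (chr17:35119870-35120008, minus strand) holds none of the motifs.
FANCA: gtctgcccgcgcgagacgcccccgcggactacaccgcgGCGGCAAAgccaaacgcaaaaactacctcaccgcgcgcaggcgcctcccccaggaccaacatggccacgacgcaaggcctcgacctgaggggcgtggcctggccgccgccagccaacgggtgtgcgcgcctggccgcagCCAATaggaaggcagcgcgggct
FANCC: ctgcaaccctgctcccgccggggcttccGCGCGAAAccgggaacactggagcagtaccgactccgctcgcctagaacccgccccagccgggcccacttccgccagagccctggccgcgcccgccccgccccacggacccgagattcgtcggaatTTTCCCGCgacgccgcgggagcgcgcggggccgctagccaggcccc
RAD51D: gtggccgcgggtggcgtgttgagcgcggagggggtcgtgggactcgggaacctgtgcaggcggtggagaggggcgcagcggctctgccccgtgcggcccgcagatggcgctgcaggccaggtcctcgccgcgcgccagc
PALB2: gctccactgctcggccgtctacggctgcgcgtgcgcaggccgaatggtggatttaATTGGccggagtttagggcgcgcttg
XRCC3: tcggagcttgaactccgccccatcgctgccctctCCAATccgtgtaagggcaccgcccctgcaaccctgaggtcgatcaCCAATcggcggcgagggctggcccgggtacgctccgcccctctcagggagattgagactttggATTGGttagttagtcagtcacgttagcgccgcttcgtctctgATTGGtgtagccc

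The Fanconi core complex, the ubiquitin ligase that acts on crosslinked DNA, had 3 of 8 genes higher, 2 lower and 3 not called. These shares, 37.5% higher and 25% lower, were near the 31.9% and 31% of all genes tested. FANCF, an adaptor subunit (ENSG00000183161, chromosome 11, 22622890 to 22625841, GRCh38), had 8.77, 9.43 and 8.21 TPM in the frankincense libraries, against 4.21, 3.56 and 4.07 TPM in the vehicle libraries. No treated library came near the vehicle range, and the log2 fold change was 0.92 ± 0.096 (SE, as for all fold changes below; edgeR adjusted p = 1.06e-06), a 1.90-fold higher count. FANCE, which links the core to FANCD2, had 5.42, 6.16 and 7.28 TPM in the frankincense libraries, against 3.60, 4.11 and 3.82 TPM in the vehicle libraries, a log2 fold change of 0.46 ± 0.10 (adjusted p = 0.00146). Both genes were among the 3 least expressed members under vehicle, by TPM. FANCM, the DNA translocase that anchors the complex, rose by 0.27 ± 0.070 on counts (adjusted p = 0.00412), at 12.5 ± 1.8 TPM with frankincense and 9.22 ± 1.3 TPM with vehicle (SD, n = 3 each), a call lost when effective transcript length was taken into account (0.19, adjusted p = 0.286).

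FANCL, the catalytic subunit that carries the ubiquitin ligase activity, went the other way. Its level (ENSG00000115392, chromosome 2, 58159243 to 58241372) was 77.7, 71.7 and 75.3 TPM with frankincense and 87.9, 86.3 and 93.4 TPM with vehicle, so the groups did not overlap. It overlaps VRK2 on the other strand, which rose by 1.05. The log2 fold change was -0.52 ± 0.055 (adjusted p = 1.17e-06), a 1.43-fold lower count, and among the vehicle levels it was the highest of the 36 genes. FANCA, a scaffold subunit, had 50.02, 50.4 and 50.9 TPM in the frankincense libraries, against 47.5, 44.8 and 42.3 TPM in the vehicle libraries. These TPM values were higher with frankincense while the counts fell by 0.13 ± 0.053 (adjusted p = 0.0386), so the direction depended on the scale. The count call was lost when any library but frankincense replicate 3 was left out, with adjusted p of 0.0580 to 0.157, and with a length offset (-0.08, adjusted p = 0.321).

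The other core genes were not called on counts. FANCG, which binds FANCA, had 59.5, 65.3 and 66.3 TPM in the frankincense libraries, against 52.3, 55.3 and 56.05 TPM in the vehicle libraries, and its count change was 0.07 ± 0.064 (adjusted p = 0.346). FANCC, the partner of FANCE and FANCF, was at 13.7, 13.6 and 15.8 TPM with frankincense and 11.8, 10.2 and 11.2 TPM with vehicle, with a count change of 0.04 ± 0.067. For both, TPM in the treated libraries lay above all vehicle libraries. The share of all genes with TPM groups apart was not computed. FANCB, an X-linked subunit, overlapped between groups at 3.58, 4.08 and 3.74 TPM with frankincense and 4.19, 4.12 and 3.05 TPM with vehicle, with a count change of -0.14 ± 0.11 (adjusted p = 0.266).

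FANCD2 and FANCI, the paired clamp proteins that receive ubiquitin from the core complex, were both lower on counts, and neither was called on TPM. FANCI had 61.9, 63.4 and 69.8 TPM in the frankincense libraries, against 62.5, 60.8 and 65.8 TPM in the vehicle libraries, a count change of -0.23 ± 0.052 (edgeR adjusted p = 0.00140) and a TPM-scale change of 0.04 ± 0.067 (limma adjusted p = 0.613). FANCD2 had 30.6, 31.4 and 36.05 TPM in the frankincense libraries, against 30.01, 27.3 and 27.4 TPM in the vehicle libraries, a count change of -0.18 ± 0.065 (adjusted p = 0.0232) and a TPM-scale change of 0.20 ± 0.082 (adjusted p = 0.0586). With a length offset on counts, FANCD2 was at -0.05 (edgeR adjusted p = 0.572) and was no longer called, while FANCI was at -0.21 (adjusted p = 0.00610). The FANCD2 call was also lost without frankincense replicate 1 or 2 or vehicle replicate 1 (adjusted p of 0.0978, 0.110 and 0.116). FANCD2 has partial pseudogene copies, so its reads are uncertain.

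All 4 BRCA mediator genes were higher on both scales, beside 31.9% of all genes on counts and 44.2% on TPM. Their median log2 fold change was 0.45 on counts. PALB2, which joins BRCA1 to BRCA2 (ENSG00000083093, chromosome 16, 23603160 to 23641310), had 46.3, 40.03 and 44.8 TPM in the frankincense libraries, against 23.7, 20.2 and 22.9 TPM in the vehicle libraries. Its treated libraries were well above the vehicle libraries, and the change was 0.73 ± 0.055 (edgeR adjusted p = 3.34e-08), or 1.66-fold. BRCA2, which prepares single strands for strand exchange (ENSG00000139618, chromosome 13, 32315474 to 32400266), had 12.4, 16.5 and 19.3 TPM in the frankincense libraries, against 7.78, 7.81 and 11.1 TPM in the vehicle libraries, a change of 0.65 ± 0.076 (adjusted p = 3.42e-06). Frankincense replicate 1 and vehicle replicate 3 lay closest to each other in TPM, at 12.4 and 11.1, but the groups did not overlap.

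The helicase gene BRIP1 rose by 0.26 ± 0.068 (adjusted p = 0.00421), at 13.8 ± 1.2 TPM with frankincense and 8.95 ± 0.18 TPM with vehicle (SD, n = 3 each). BRCA1, the ubiquitin ligase that promotes end resection and recruits PALB2, rose by 0.22 ± 0.074 (adjusted p = 0.0185), at 29.6 ± 3.8 TPM with frankincense and 21.1 ± 1.2 TPM with vehicle. Its CPM groups overlapped, and its call was lost without vehicle replicate 1 or 2 (adjusted p of 0.0521 and 0.0870). BRCA1 also overlaps the RNA gene NBR2 on the other strand, and it has a partial pseudogene copy, which leaves part of its reads uncertain.

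**Figure D2:**
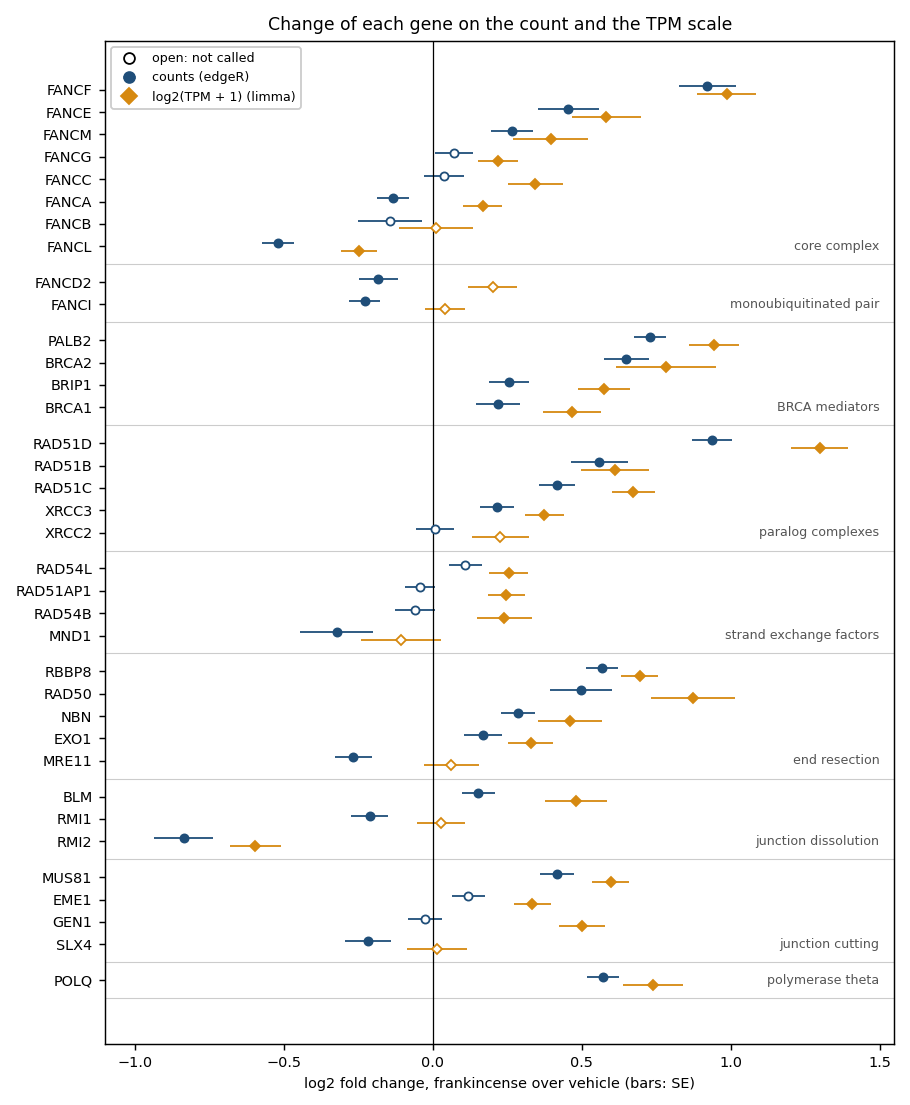
Log2 fold change, frankincense over vehicle, of each gene on counts (circles, edgeR) and on log2(TPM + 1) (diamonds, limma), with SE bars; open symbols were not called. Diamonds lie to the right of circles for every gene, and 10 genes lie on opposite sides of 0 on the 2 scales.

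RAD51B, RAD51C, RAD51D, XRCC2 and XRCC3 encode paralogs that work in shared complexes to assist strand exchange. On counts, 4 of these 5 genes were higher and 1 was not called, beside 31.9% of all genes higher. RAD51D (ENSG00000185379, chromosome 17, 35092208 to 35121522) carried the largest rise of the 36 genes, with 12.4, 13.4 and 13.8 TPM in the frankincense libraries, against 4.26, 4.91 and 5.18 TPM in the vehicle libraries. Every treated library was far above every vehicle library in TPM, and the count change was 0.94 ± 0.068 (edgeR adjusted p = 2.24e-08), or 1.91-fold. Its ratio of mean TPM, 2.76, was past 2-fold. RAD51B, encoded by a very long gene (ENSG00000182185, chromosome 14, 67819779 to 68730218), had 15.5, 17 and 16.8 TPM in the frankincense libraries, against 12.5, 10.03 and 8.95 TPM in the vehicle libraries, a count change of 0.56 ± 0.096 (adjusted p = 0.000143). RAD51C, shared by both paralog complexes, had 81.4, 85.7 and 92.9 TPM in the frankincense libraries, against 55.7, 55.8 and 50.4 TPM in the vehicle libraries, a change of 0.42 ± 0.060 (adjusted p = 2.59e-05).

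XRCC3, the partner of RAD51C, rose by 0.22 ± 0.057 (adjusted p = 0.00403) at 44.8 ± 1.7 TPM with frankincense and 34.3 ± 1.5 TPM with vehicle, a call lost with a length offset (0.13, adjusted p = 0.0903). XRCC2, the partner of RAD51D, was not called: it had 10.2, 10.04 and 12.4 TPM in the frankincense libraries, against 9.10, 9.21 and 8.99 TPM in the vehicle libraries and a count change of 0.01 ± 0.065 (adjusted p = 0.920). RAD51D and XRCC2, which work in the same complex, therefore had count changes of 0.94 and 0.01.

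The strand exchange factors had 1 gene lower on counts and 3 not called, beside 31% of all genes lower. RAD54L, a motor protein that helps strands invade the intact molecule, had 44.4, 47.02 and 46.4 TPM in the frankincense libraries, against 40.4, 36.8 and 37.9 TPM in the vehicle libraries, and its count change was 0.11 ± 0.056 (adjusted p = 0.104). RAD51AP1, which stimulates strand exchange, had 59.7, 61.6 and 64.9 TPM in the frankincense libraries, against 53.5, 50.4 and 52.5 TPM in the vehicle libraries, with a count change of -0.04 ± 0.051 (adjusted p = 0.481). The relative of RAD54L, RAD54B, was at 19.5, 18.4 and 20.5 TPM with frankincense and 14.4, 17.6 and 17.2 TPM with vehicle, with a count change of -0.06 ± 0.066 (adjusted p = 0.449). All 3 had TPM groups that did not overlap, higher with frankincense, and count changes within about 2 SE of 0. On TPM, 44.2% of all genes were called higher, and the share of all genes without overlap in TPM was not computed. With a length offset RAD54L, RAD51AP1 and RAD54B were at 0.008, -0.003 and -0.007 (edgeR adjusted p of 0.931, 0.975 and 0.9585). On TPM rescaled without mitochondrial genes none was called either (limma adjusted p of 0.348, 0.382 and 0.577). RAD54B overlaps FSBP on the same strand, which rose by 0.53, so the division of reads between them is uncertain.

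MND1, a meiotic strand exchange factor that binds PSMC3IP, was detected in these cells at 20.7, 17.6 and 14.2 TPM with frankincense and 21.4, 17.2 and 17.7 TPM with vehicle. The groups overlapped in TPM, and the count change was -0.32 ± 0.12 (adjusted p = 0.0320). Without frankincense replicate 3, its lowest library, the change was -0.17 (edgeR adjusted p = 0.136), and the call was also lost without vehicle replicate 1 or 3 (adjusted p of 0.129 and 0.0705) and with a length offset (-0.34, adjusted p = 0.0849). Of 7 germ cell markers, 5 were under 1 TPM in every library, among them SYCP1, SPO11 and HORMAD1 at 0. The other 2, DMC1 and STAG3, were above 1 TPM in every library and were not called on counts. They averaged 2.45 and 2.37 TPM with frankincense and 1.78 and 2.37 TPM with vehicle.

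End resection genes, whose products trim broken ends, were higher on counts in 4 of 5, beside 31.9% of all genes. RBBP8, which encodes the resection cofactor CtIP (ENSG00000101773, chromosome 18, 22798261 to 23026488), had 51.5, 53.8 and 49.8 TPM in the frankincense libraries, against 32.3, 30.8 and 31.5 TPM in the vehicle libraries, a count change of 0.57 ± 0.054 (edgeR adjusted p = 3.9e-07). RAD50, the bridging subunit of the MRE11 complex, had 20.6, 20.7 and 30.5 TPM in the frankincense libraries, against 13.3, 11.4 and 12.5 TPM in the vehicle libraries, a change of 0.50 ± 0.11 (adjusted p = 0.00269). Frankincense replicate 3 was the highest of its group for RAD50, and the other treated libraries were still above all vehicle libraries. A gene without a symbol that is annotated on the same strand spans RAD50; it averaged 6.42 TPM with frankincense and 2.60 TPM with vehicle, so the division of reads between them is uncertain.

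NBN, the signalling subunit of the same complex, rose by 0.29 ± 0.056 (adjusted p = 0.000469) at 25.6 ± 3.8 TPM with frankincense and 18.2 ± 1.4 TPM with vehicle. MRE11, its nuclease, did not follow the other subunits: it had 20.6, 20.3 and 24.9 TPM in the frankincense libraries, against 20.8, 19.8 and 22.1 TPM in the vehicle libraries, a fall of 0.27 ± 0.062 on counts (adjusted p = 0.00162) and a TPM-scale change of 0.06 ± 0.093 (limma adjusted p = 0.586). EXO1, the long-range resection exonuclease, rose by 0.17 ± 0.064 (adjusted p = 0.0327), at 22.4 ± 0.96 TPM with frankincense and 17.6 ± 0.92 TPM with vehicle. That call was lost with the length offset (0.09, adjusted p = 0.300) and without frankincense replicate 3 or vehicle replicate 1 or 2 (adjusted p of 0.0647, 0.0882 and 0.137).

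Of the 3 genes for the helicase and cofactors of the complex that dissolves joined molecules, 1 was higher and 2 were lower on counts. These stand beside 31.9% of all genes higher and 31% lower. RMI2 (ENSG00000175643, chromosome 16, 11249619 to 11381662) carried the largest fall of the set, with 45.3, 44.8 and 37.03 TPM in the frankincense libraries, against 65.5, 60.5 and 66.95 TPM in the vehicle libraries. The groups did not overlap, and the change was -0.84 ± 0.099 (edgeR adjusted p = 3.09e-05), a 1.79-fold lower count. RMI2 overlaps SOCS1, which also fell (-1.36), on the other strand. RMI1, the other cofactor, was at 15.9, 17.2 and 17.1 TPM with frankincense and 16.4, 15.3 and 17.5 TPM with vehicle, overlapping in TPM, with a count fall of 0.21 ± 0.062 (adjusted p = 0.00863). It was not called on the TPM scale (0.03, limma adjusted p = 0.787). BLM, the helicase itself, was higher by 0.15 ± 0.055 on counts (adjusted p = 0.0261), at 34.8 ± 3.1 TPM with frankincense and 24.8 ± 3.2 TPM with vehicle. That call was lost without frankincense replicate 1 or vehicle replicate 1 or 2 (adjusted p of 0.0694, 0.0681 and 0.116).

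Nucleases that cut joined molecules had 1 gene higher, 1 lower and 2 not called on counts, beside 31.9% of all genes higher and 31% lower. MUS81, the catalytic subunit, had 66.2, 68.2 and 73.4 TPM in the frankincense libraries, against 46.5, 44.9 and 44.8 TPM in the vehicle libraries, a change of 0.42 ± 0.057 (adjusted p = 1.73e-05), and the groups lay far apart. EME1, its partner, had 69.5, 72.8 and 74.2 TPM in the frankincense libraries, against 59.6, 57.8 and 53.8 TPM in the vehicle libraries and a count change of 0.12 ± 0.055 (adjusted p = 0.0705). It overlaps LRRC59 on the other strand, which rose by 1.07, and MUS81 overlaps CFL1, which fell by 0.62. These are overlaps of gene spans, and reads from any shared exon bases cannot be assigned with certainty.

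SLX4, the scaffold for these nucleases, was at 5.34, 5.21 and 5.62 TPM with frankincense and 5.96, 5.23 and 4.84 TPM with vehicle, with a count fall of 0.22 ± 0.077 (adjusted p = 0.0238) that was lost without frankincense replicate 2 or vehicle replicate 1 or 2 (adjusted p of 0.0787, 0.153 and 0.0665). The fall without vehicle replicate 1 was 0.14. GEN1, a resolvase, had 12.6, 12.3 and 12.7 TPM in the frankincense libraries, against 8.87, 8.54 and 8.28 TPM in the vehicle libraries, yet its count change was -0.03 ± 0.058 (adjusted p = 0.712). The span of SMC6 overlaps 35084 bases of GEN1 on the other strand, introns included, so reads of GEN1 from any shared exon bases are uncertain. SMC6 averaged 30.4 TPM with frankincense and 26.1 TPM with vehicle. POLQ, the polymerase of the error-prone end joining route that competes with recombination, had 19.2, 19.3 and 22.97 TPM in the frankincense libraries, against 11, 13.2 and 11.4 TPM in the vehicle libraries, a change of 0.57 ± 0.053 (adjusted p = 3.25e-07).

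The 2 scales gave different calls for 14 of the 36 genes and different signs for 10. Called higher on TPM only were FANCC, FANCG, RAD54L, EME1, RAD51AP1, RAD54B and GEN1. Their limma adjusted p ran from 0.00042 (GEN1) to 0.0468 (RAD54B). Called lower on counts only were MND1, MRE11, FANCI, SLX4, RMI1 and FANCD2. On log2(TPM + 1), 26 members were higher and 2 lower (limma, 72.2% and 5.56%), beside 44.2% and 14.9% of all genes and 59.1% in either direction. The median change on this scale was 0.20 over all genes and 0.36 over the members. The sign differed for FANCA, FANCB, FANCD2, FANCI, RAD51AP1, RAD54B, MRE11, RMI1, SLX4 and GEN1, all of them higher on TPM. FANCA was the 1 gene called in opposite directions, at -0.13 ± 0.053 on counts and 0.17 ± 0.064 on the TPM scale (limma adjusted p = 0.0475). RMI2 and FANCL were the 2 genes called lower on both.

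Both library composition and transcript length moved with this gap. The log2 TPM ratio exceeded the log2 count fold change by a median of 0.24 over the members and 0.25 over all genes tested. RNA of the mitochondrial genome took 16.3% to 17.9% of TPM with frankincense and 26.6% to 27.1% with vehicle. After TPM was rescaled without those genes, 17 members rose and 2 fell, and the members' median was 0.19. Over all genes in that fit, the 16719 tested less the mitochondrial ones, 5167 were higher and 3784 lower. The remaining spread between members followed transcript length, by construction, since TPM divides by it.

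Effective length, RSEM's abundance-weighted mean over the transcripts of a gene, did not overlap between groups for 13 members, 10 shorter and 3 longer after frankincense. The share of all genes without overlap was not computed, so this count is not read as a result about the set. It includes FANCE, FANCF and XRCC2, whose mean lengths hardly differed. These were 2401, 3117 and 4595 bases with frankincense and 2403, 3118 and 4598 bases with vehicle. The median log2 length ratio was -0.0008 over the members and -0.0020 over all genes tested. For a single gene, an exact permutation test of 3 against 3 libraries cannot go below p = 0.1 (two-sided). GEN1 changed most, with 4768, 4827 and 5475 bases in the frankincense libraries, against 5998, 6095 and 6897 bases in the vehicle libraries. RAD51D had 4048, 4236 and 4036 bases in the frankincense libraries, against 5492, 4839 and 4762 bases in the vehicle libraries, and RAD50 had 4393, 4421 and 4267 bases in the frankincense libraries, against 4976, 4978 and 5025 bases in the vehicle libraries. In these 3 genes the mean transcript was shorter in all treated libraries than in any vehicle library. With length as an offset on counts, the change of GEN1 was 0.30 ± 0.068 (edgeR adjusted p = 0.00257), that of RAD51D 1.21 ± 0.088 and that of RAD50 0.68 ± 0.11. In that fit 16 members were higher and 6 lower, beside 28.5% and 27.5% of all genes and 56% in either direction.

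**Figure D3:**
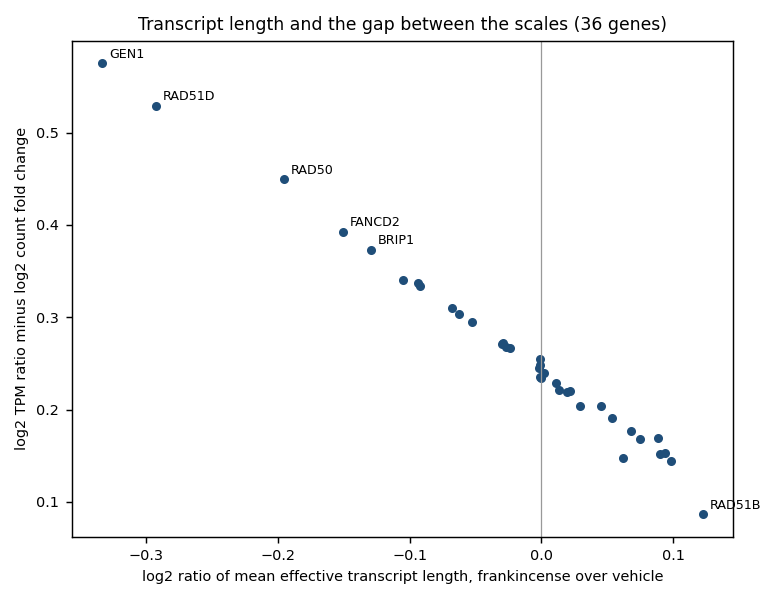
Each point is 1 of the 36 genes: the x axis is the log2 ratio of mean effective transcript length, frankincense over vehicle, and the y axis the log2 TPM ratio minus the log2 count fold change. The points fall along a line, with GEN1 at -0.33 and 0.58, RAD51D at -0.29 and 0.53, and RAD51B at 0.12 and 0.09.

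Called on counts, on TPM and on counts with a length offset alike were 15 risers and 2 fallers. The share of all genes called alike in these fits was not computed, so the count is not read as a result about the set. The risers were RAD51D, FANCF, PALB2, BRCA2, POLQ, RBBP8, RAD51B, RAD50, FANCE, MUS81, RAD51C, NBN, BRIP1, BRCA1 and BLM, and the fallers were RMI2 and FANCL.

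A protein-coding neighbour on the other strand started within 1000 bases of 15 members, in 16 pairs, of which 10 had both genes tested. Both genes were called in the same direction in 3 pairs: PALB2 with DCTN5, higher, and RMI1 with HNRNPK and SLX4 with DNASE1, lower. Opposite calls were found in 4 pairs, FANCM with FKBP3, BRCA1 with NBR1, XRCC3 with ZFYVE21 and MRE11 with ANKRD49. The annotated spans of 17 of the 36 members, introns included, overlapped another gene at or above 1 TPM. Overlap of exons was not computed. No source states that strand was kept in the libraries, so reads from any exon bases that such genes share cannot be told apart.

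A further list of 50 Fanconi and homologous recombination genes outside the set had 20 higher and 14 lower on counts, with a median count change of 0.11. These shares, 40% and 28%, were near the 31.9% and 31% of all genes tested. On TPM, 29 were higher and 5 lower, beside 44.2% and 14.9% of all genes. The largest rises in it were ERCC4, a crosslink nuclease subunit, at 0.62 ± 0.075, PSMC3IP, the partner of MND1, at 0.60 ± 0.079, SFR1, a strand exchange cofactor, at 0.59 ± 0.11, the helicase WRN at 0.58 ± 0.062 and FAAP100, a core complex subunit, at 0.56 ± 0.059. The largest falls were SEM1, a small BRCA2-binding protein, at -0.77 ± 0.086, CENPX, which binds FANCM, at -0.70 ± 0.070, ETAA1, an activator of ATR, at -0.54 ± 0.056, UBE2T, the ubiquitin-conjugating enzyme that works with FANCL, at -0.53 ± 0.065, and RPA1, which coats single strands, at -0.49 ± 0.053. UBE2T and FANCL, the enzyme pair of the Fanconi pathway, were thus both lower, at -0.52 ± 0.055 for FANCL.

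Other repair lists had count medians of 0.12 to 0.19, and their count shares stand beside 31.9% higher and 31% lower over all genes and their TPM counts beside 44.2% and 14.9%. Non-homologous and alternative end joining had 9 genes higher (45%) and 3 lower (15%) of 20 on counts (median 0.19), and 13 higher and 7 not called on TPM, with the ligases LIG4 at 0.51 ± 0.066 and LIG3 at 0.42 ± 0.063. Mismatch, base and nucleotide excision repair had 14 higher (46.7%) and 11 lower (36.7%) of 30 on counts (median 0.12), and 17 higher and 3 lower on TPM, with PMS1, a mismatch repair protein, at 0.85 ± 0.055 and XPC, a damage sensor, at 0.70 ± 0.052. Damage checkpoint genes had 10 higher (50%) and 6 lower (30%) of 20 on counts (median 0.16), and 14 higher and 3 lower on TPM, with the histone variant H2AX at -0.89 ± 0.066.

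Cell cycle lists, whose products act in the same phases as recombination, had lower medians. Over all genes, 31.9% were higher and 31% lower on counts, and 44.2% and 14.9% on TPM. Of 30 DNA replication and G1/S genes, 20 were lower and 5 higher on counts, 7 and 7 on TPM, with a count median of -0.28. CDC6, a licensing factor, was at 1.57 ± 0.055 and RRM2, a ribonucleotide reductase subunit, at -1.07 ± 0.060. Of 30 G2/M genes, 29 were lower and 1 was not called on counts, while 25 were lower and 1 higher on TPM, with a count median of -0.72. The mitotic kinesin KIF20A was at -2.05 ± 0.056 and ANLN, a cytokinesis protein, at -1.15 ± 0.054. The part of these cell cycle genes in the changes of the recombination and Fanconi genes was not tested.

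**Figure D4:**
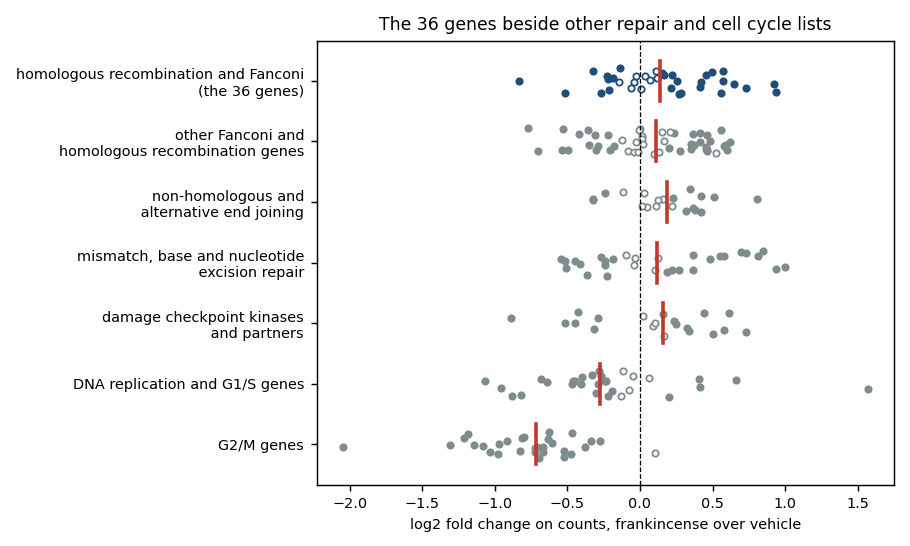
Log2 fold change on counts, frankincense over vehicle, of the 36 genes (top) and of 6 other lists, 1 point per gene, open where not called; red bars are list medians and the dashed line is the median of all genes tested. The median of the 36 genes is 0.14, while that of the replication list is -0.28 and that of the G2/M list -0.72.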

How the data were processed

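RNA of 12Z cells was sequenced in 6 libraries, 3 from frankincense extract and 3 from DMSO. The submitters' processing notes name STAR, RSEM 1.3.1 and the build GRCh38 (annotation, read filters and STAR version: not given in the sources used here). The authors deposited expected counts, which RSEM estimates per gene. The deposited TPM values are abundances per transcript length that share 1 library total, and the deposited FPKM values (not tested) are fragments per length and depth. Per the file headers, effective length is given in bases for each library.

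After rounding, expected counts went into edgeR 4.0.16 under R 4.3.3 (filterByExpr, TMM, robust glmQLFit, glmQLFTest, two-sided), frankincense over vehicle, with Benjamini-Hochberg adjustment over 16719 genes. An SE is the log2 fold change divided by the square root of F. TPM was tested as log2(TPM + 1) with limma 3.58.1 (trend, robust), a scale that understates changes of low genes. Both tests were run on counts simulated with a common dispersion, limma on log2 CPM. The test on log2(TPM + 1) was therefore not checked as used here. A chi-square test of counts gave, per degree of freedom, 14.0 and 12.1 between frankincense replicate 3 and frankincense replicates 1 and 2. The other pairs within groups had 3.86 to 4.44. Each library was treated as 1 sample, but these values cannot show whether the libraries came from separate cultures.

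All 36 members are named. Values in every library are given for the 14 largest called changes, members not called and members whose sign differs between scales. From the list of further pathway genes the 5 largest called rises and falls are named, and from each other list the 2 smallest adjusted p; a gene this rule selects is not reported here. The members and lists were chosen with earlier results of these data known, and promoter motifs and neighbours after values were seen. Symbols matched all members. Positions, and the starts used for neighbouring pairs, are from GENCODE 29 (GRCh38). Promoters are from RefSeq (GRCh38.p14).

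Alternatives were other scalings and filters, DESeq2 1.42.0, limma-voom, a TPM pseudocount of 0.1, TPM or counts without mitochondrial genes, a length offset, a replicate block and leaving out each library.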

Additional observations from a re-analysis of the deposited data

How the results depend on the processing

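Across 19 alternatives, 13 risers (RAD51D, FANCF, PALB2, BRCA2, POLQ, RBBP8, RAD51B, RAD50, FANCE, MUS81, RAD51C, NBN and BRIP1) and 2 fallers (RMI2 and FANCL) kept direction and call; the other 21 genes changed in at least 1. The share of all genes that kept direction and call was not computed, so these counts are not read as a result about the set. The SE of the members' count changes, 0.051 to 0.12 on the log2 scale, limits what can be called. The cause of the shifts below was not tested, except that TPM and length offsets divide by length by construction.

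Members called lower numbered 9 in the reported fit, 4 with library size only, 2 on TPM with a pseudocount of 1 or 0.1 and 2 on TPM rescaled without mitochondrial genes, and 5 to 8 when 1 library was left out (5 without vehicle replicate 1); 15 to 19 were then called higher. Over all genes, 5177 were lower, against 2491 and 2490 on TPM with a pseudocount of 1 and 0.1 and 3784 on rescaled TPM. The share of higher calls moved likewise, with 7389 and 7392 higher on TPM with these pseudocounts, against 5332. Among the other count fits, calls ended for FANCA, BLM and EXO1 with DESeq2, for FANCA, FANCD2, MND1, RMI1 and SLX4 with library size only, for BRCA1, BLM and EXO1 with upper-quartile scaling, for BLM and EXO1 with the filter at 5 CPM and for FANCA with no filter. Library size scaling gave 6198 higher and 4367 lower and upper-quartile scaling 4826 and 5659.

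Signs turned as follows. On TPM with a pseudocount of 1 and 0.1: FANCA 0.167 and 0.171, FANCB 0.012 and 0.017, FANCD2 0.201 and 0.207, FANCI 0.042 and 0.043, RAD51AP1 0.247 and 0.251, RAD54B 0.241 and 0.253, MRE11 0.063 and 0.065, RMI1 0.028 and 0.029, SLX4 0.014 and 0.017, GEN1 0.501 and 0.544. On rescaled TPM: FANCD2 0.022, RAD51AP1 0.065, RAD54B 0.066 and GEN1 0.338. With library size only: RAD51AP1 0.032, RAD54B 0.016 and GEN1 0.050. With upper-quartile scaling: FANCC -0.006 and XRCC2 -0.036. With at least 5 CPM in 3 libraries: XRCC2 -0.021. With the length offset: FANCG -0.032, XRCC2 -0.002 and GEN1 0.296. Leaving out 1 library gave FANCC -0.008 to 0.070, XRCC2 -0.038 to 0.051 and GEN1 -0.047 to 0.004.

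With the replicate number as a block, 18 members were higher and 9 lower, and no member's call changed. Same-numbered libraries deviated together with correlations of 0.05, 0.10 and 0.04, all above the -0.07 to 0.02 of libraries with different numbers. These small values cannot show whether the libraries were paired, and the reported fit used no pairs.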
